A study of Mus musculus with 19 samples.

Results

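The genes described here encode the proteins of the cytosolic ribosome in cultured mouse hippocampal neurons. They were chosen by name alone, as the rows whose symbol is Rpl or Rps followed by a number (with an a, x or l where the symbol has one), p0 to p2 or a. This gave 81 of the 24058 genes in the expression files, 49 of the large subunit and 32 of the small subunit. All 81 matched a RefSeq gene of the GRCm38.p6 assembly. The neurons came from hippocampus at embryonic day 17 and were kept for 10 days in vitro, as the labels give it. They were excited for 3 h with bicuculline, which blocks GABA-A receptors, and 4-aminopyridine, which blocks potassium channels (Bic/4AP), or were given tetrodotoxin, which blocks voltage-gated sodium channels (TTX), or were left untreated. The labels used here give no duration for TTX. RNA-seq covered 3 libraries of each treatment from ICR mice. H3K27ac peaks came from 2 Bic/4AP and 2 untreated samples and H3K4me1 peaks from 2 untreated samples, all ICR, while CpG methylation came from 1 library of each treatment from C57BL/6 mice. Whether replicate libraries stem from separate cultures is not stated, so the p-values reflect variation among libraries that may be technical in part.

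A ribosome has a large and a small subunit, and each holds 1 copy of most of its proteins together with ribosomal RNA. Ribosomal protein mRNAs of mammals typically begin with a run of pyrimidines, the terminal oligopyrimidine (TOP) motif, through which mTOR signalling controls their translation. Their genes are transcribed in almost every cell type, and neurons also carry these mRNAs into axons and dendrites. Many of the genes have processed pseudogenes of nearly the same sequence, and no source used here states how reads shared with such copies were counted. Values of single genes are uncertain to that extent.

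Expression was deposited as RPKM, reads per 1 kb of gene and 1 M reads of the library, and the reads per library could be recovered from the steps between low values. They were 4.34 to 4.59 M for Bic/4AP, 9.68 to 12.6 M for TTX and 5.63 to 9.97 M for untreated libraries, so depth differed between the groups. The highest RPKM of any gene was 254 to 287 in Bic/4AP, 123 to 146 in TTX and 305 to 459 in untreated libraries. All 12 neuronal marker genes were at 1 RPKM or more in every group. Their summed level was 1299 to 1326 RPKM with Bic/4AP, 788 to 875 with TTX and 810 to 950 untreated. The 18 choroid plexus markers summed to 60.6 to 64.1 RPKM with Bic/4AP, 43.9 to 53.6 with TTX and 579 to 859 untreated, with 8, 8 and 18 of them at 1 RPKM or more on average and none at 0 in all libraries of a group. The 11 measured RNAs without poly(A) tails summed to 80.9 to 94.6 RPKM with Bic/4AP, 44.9 to 55.3 with TTX and 806 to 1296 untreated, and Scarna17 was at 0 in every Bic/4AP library. The untreated libraries thus stood apart from both treatments in these 2 lists. Astrocyte markers, all 10 at 1 RPKM or more, summed to 287 to 334 RPKM with Bic/4AP, 237 to 257 with TTX and 199 to 205 untreated. The 8 markers of progenitors and cycling cells summed to 84.7 to 99.3 RPKM with Bic/4AP, 64.9 to 70.0 with TTX and 43.5 to 49.985 untreated, and both lists thus ran in the order of the ribosomal protein genes. Microglial markers (9) ran in this order as well, summing to 31.0 to 35.2 RPKM with Bic/4AP, 22.2 to 26.1 with TTX and 12.4 to 21.0 untreated. Vascular markers (10) summed to 41.8 to 57.3, 50.6 to 60.3 and 34.4 to 44.4 RPKM in these groups, and markers of the oligodendrocyte lineage (8) to 22.2 to 28.7, 43.0 to 52.1 and 23.0 to 29.7. Sox10 and Cldn5 were at 0 in every Bic/4AP library. The part of these lists in the results below was not tested. In bulk samples, fewer cells of a type and less RNA per cell cannot be told apart.

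Of the 81 genes, 79 reached 1 RPKM in at least 3 libraries, the level needed to enter the fit of 14801 genes. Most were strongly expressed: 25 of the 79 stood in the top decile (10%) of tested genes by mean RPKM, 32 in the ninth decile and 12 in the eighth. The highest mean over the 9 libraries was that of Rpl41, which encodes the shortest ribosomal protein, at 80.2 RPKM. Rpl4, whose protein reaches into the tunnel through which the new chain leaves, followed at 76.7 RPKM, Rpl39, a small tunnel protein, at 75.7 and Rpl15, a large subunit protein, at 71.2. The lowest of those tested were Rps4l at 9.50 RPKM, Rpl21 at 8.37 and Rpl39l at 1.33.

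Both genes below the level of the fit were paralogs known for other tissues. Rpl10l, a retrogene copy of Rpl10 that takes over in male germ cells, was listed at 0 in all Bic/4AP and all TTX libraries and had 0.173, 0 and 0.170 RPKM in untreated libraries. Where it was above 0, it was close to the worth of a single read in a gene of 1 kb, which was 0.177 and 0.174 RPKM in those libraries. Rpl3l, the paralog of Rpl3 used in heart and skeletal muscle, had 0.139, 0 and 0.144 RPKM with Bic/4AP, 0.446, 0.635 and 0.130 with TTX and 0, 0.503 and 0.109 untreated. Its groups overlapped. Rpl39l, a paralog of Rpl39 known from testis, entered the fit with 1.10, 3.25 and 0.573 RPKM with Bic/4AP, 0.884, 0.629 and 1.28 with TTX and 1.98, 1.87 and 0.433 untreated, and its groups also overlapped.

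RefSeq's table of gene starts on GRCm38.p6, the assembly that mm10 in the submitters' notes stands for, listed a start for 60 of the 81 genes. The 55 bases around a start are shown in 2 sets: 3 genes with long pyrimidine runs as examples of the TOP motif (Rpl27a, Rpl35, Rpl15), and, since their levels are compared below, the ubiquitous and the paralogous gene of 3 pairs (Rps27 and Rps27l, Rpl39 and Rpl39l, Rpl10 and Rpl10l). Each holds 40 bases before the listed start and 15 from the start on, read along the gene's strand, and capitals mark the longest run of C or T that has a base within 5 bases of the start.
Rpl27a: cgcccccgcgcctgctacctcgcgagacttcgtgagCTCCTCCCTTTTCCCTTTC
Rpl35: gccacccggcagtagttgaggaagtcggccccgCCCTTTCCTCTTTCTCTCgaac
Rpl15: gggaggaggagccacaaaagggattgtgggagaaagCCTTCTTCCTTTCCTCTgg
Rps27: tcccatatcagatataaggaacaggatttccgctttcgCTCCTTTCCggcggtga
Rps27l: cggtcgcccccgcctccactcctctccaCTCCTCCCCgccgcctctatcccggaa
Rpl39: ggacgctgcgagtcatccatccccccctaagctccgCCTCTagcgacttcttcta
Rpl39l: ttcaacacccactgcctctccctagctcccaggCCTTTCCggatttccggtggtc
Rpl10: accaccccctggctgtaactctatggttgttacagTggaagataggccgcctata
Rpl10l: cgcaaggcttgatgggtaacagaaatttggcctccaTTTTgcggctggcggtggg

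These windows lie at chr7:109519155-109519209 (plus strand) for Rpl27a, chr2:39005117-39005171 (minus) for Rpl35, chr14:18270972-18271026 (minus) for Rpl15, chr3:90213634-90213688 (minus) for Rps27 and chr9:66946046-66946100 (plus) for Rps27l. The other 4 are chrX:37085208-37085262 (minus) for Rpl39, chr16:10170188-10170242 (plus) for Rpl39l, chrX:74270776-74270830 (plus) for Rpl10 and chr12:66284387-66284441 (minus) for Rpl10l. The run at Rpl27a goes on beyond the printed window, to 20 bases in all, and those at Rpl35 and Rpl15 hold 18 and 17 bases. Rps27 and Rps27l each have a run of 9, while that at Rpl39 holds 5, at Rpl39l 7, at Rpl10l 4 and at Rpl10 a single base.

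Such a run of 8 or more pyrimidines was found for 20 of the 60 genes, or 33.3%, against 9.82% of the 10680 tested genes with a listed start and 9.65% of all 16781 genes with one. In windows of 250 bases before to 50 after the start, read on both strands, the ETS letters CCGGAAG stood in 24 of the 60, or 40%, against 16.7% of tested genes. The letters ATGGCG, the core of YY1 motifs, stood in 18 of the 60, or 30%, against 15.1%. TATAAA stood in 6 (10%, against 7.30%), GGGCGG in 35 (58.3%, against 64.0%) and CCAAT in 19 (31.7%, against 38.8%). Over all 16781 genes with a listed start the shares were 11.8% for CCGGAAG, 11.1% for ATGGCG, 12.9% for TATAAA, 47.1% for GGGCGG and 39.0% for CCAAT. The ETS and YY1 letters were thus more common than among tested genes and than among all genes. For TATAAA and GGGCGG the share lay between those of tested and of all genes, and for CCAAT it was below both. None of these letters shows that a factor is bound, and listed starts can differ from those used in these cells.

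**Figure D1:**
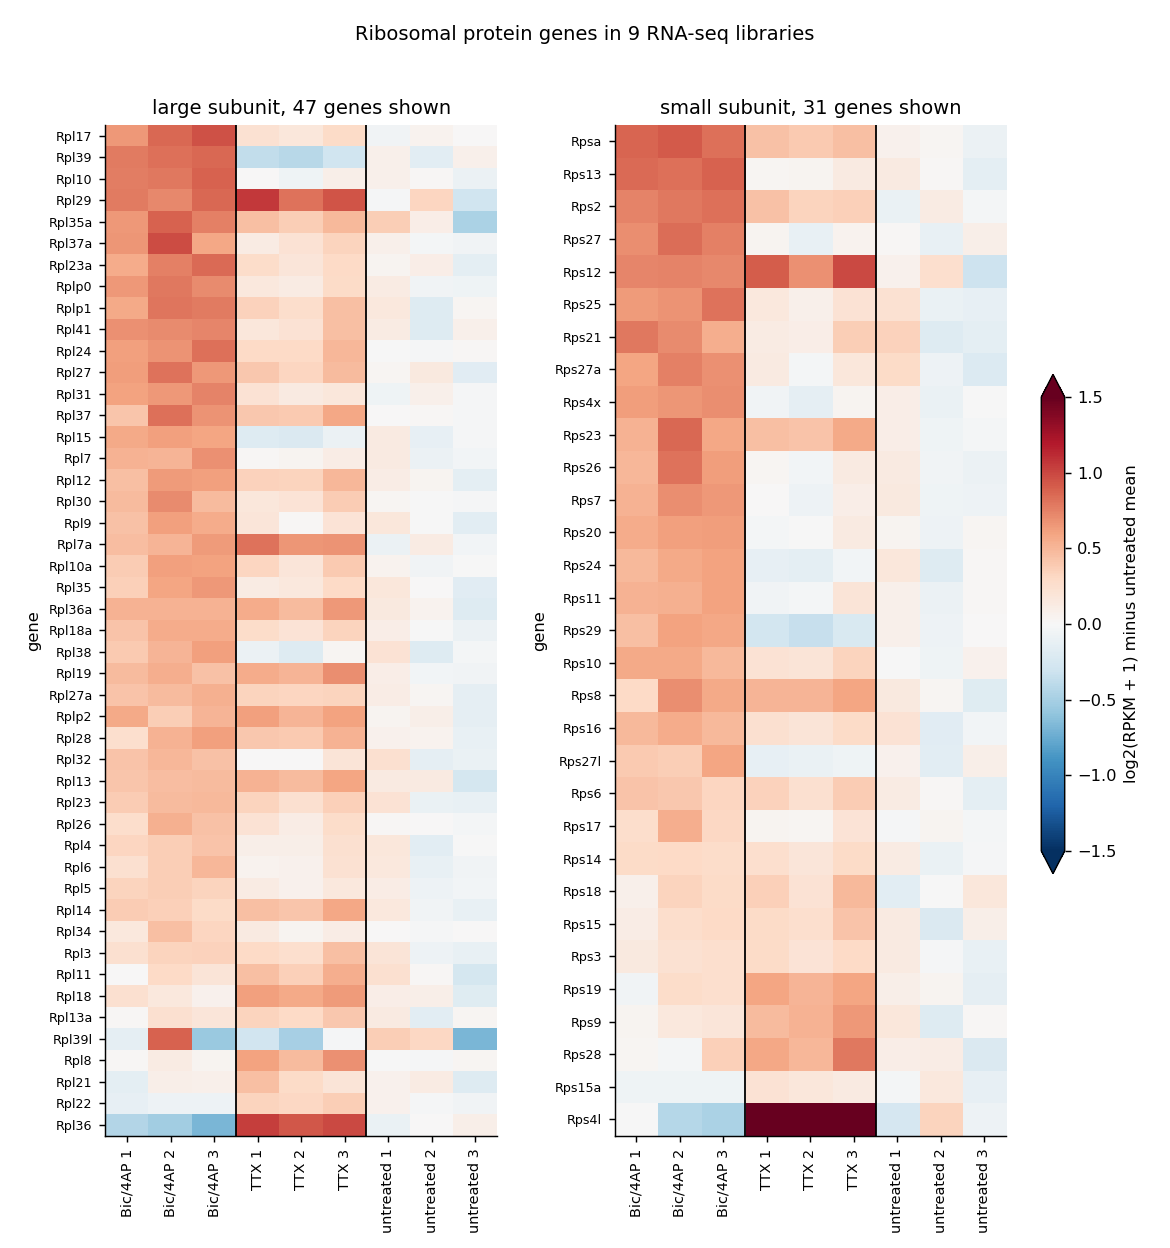
Level of tested ribosomal protein genes in each library, as log2(RPKM + 1) minus the mean of the 3 untreated libraries (colour; values past 1.5 share the end colour, as for Rps4l with TTX). Rows are genes sorted by their mean with Bic/4AP, columns are libraries, and most genes are red in all Bic/4AP libraries, while Rpl36, at the bottom of the large subunit, is blue there and red with TTX.

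Summed over all 81 genes, ribosomal protein RNA was highest with Bic/4AP. The sums were 3509, 3791 and 3753 RPKM with Bic/4AP, 3058, 2941 and 3258 with TTX and 2751, 2474 and 2459 untreated. The 3 groups did not overlap, with means of 3685 ± 153, 3086 ± 160 and 2561 ± 165 RPKM (SD, n = 3 each). As a share of the summed RPKM of all genes, the means were 1.31% ± 0.0492 with Bic/4AP, 1.07% ± 0.0489 with TTX and 0.940% ± 0.0573 untreated. Library depth was lowest with Bic/4AP and highest with TTX, and the part of depth in these sums was not tested.

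The subunits moved nearly in parallel. Large subunit genes summed to 2165 ± 98.6 RPKM with Bic/4AP, 1842 ± 94.3 with TTX and 1505 ± 97.5 untreated, and small subunit genes to 1520 ± 55.5, 1244 ± 65.6 and 1056 ± 68.2. The ratio of large to small was 1.406, 1.421 and 1.445 with Bic/4AP, 1.479, 1.484 and 1.479 with TTX and 1.425, 1.446 and 1.405 untreated. The 3 TTX libraries lay above all 6 others by a small margin, and the other groups overlapped. The 4 deepest libraries also had the 4 highest ratios, and the part of depth in the ratio was not tested.

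**Figure D2:**
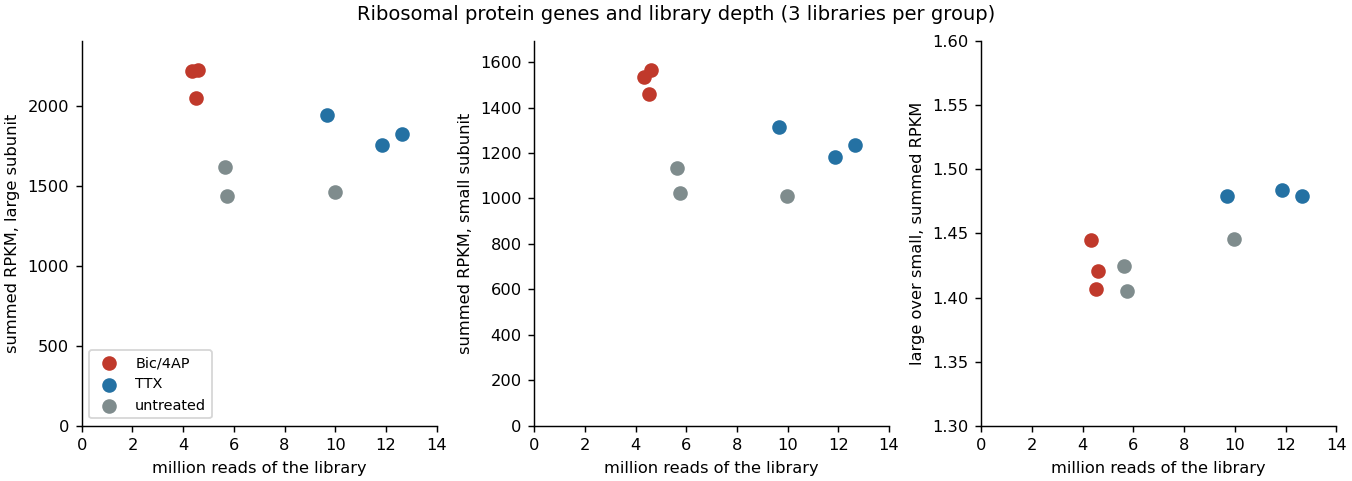
Summed RPKM of the large subunit genes, of the small subunit genes and their ratio (y axes; the ratio axis starts at 1.3) against the reads of each library in M (x axes), 1 point per library. The Bic/4AP libraries have the fewest reads and the highest sums, and the TTX libraries have sums above the untreated ones at a ratio near 1.48.

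Libraries within a group also differed. Of the 3 TTX libraries the one with fewest reads, replicate 3, was the highest in 69 of the 79 genes, against 28.1% of all genes tested and 96.7% of the top decile by level. Of the 3 untreated libraries the deepest, replicate 2, was the lowest in 30 of the 79, or 38.0%, against 26.1% of all genes and 69.1% of the top decile. Libraries of like depth allow a comparison with less of a depth difference, as a description only. Genes of the same libraries are not replicates, and the part of depth was not tested. TTX replicate 3 (9.68 M reads) exceeded untreated replicate 2 (9.97 M) in 75 of the 79 genes, with a median log2 difference of 0.38, against 0.04 for all genes tested and 0.09 for the top decile. It did so in 7962 of all 14801 genes and in 932 of the 1481 genes of the top decile. This sets 1 library against 1, and TTX replicate 3 had the highest sum of the ribosomal protein genes in its group, at 3258 RPKM. The Bic/4AP libraries, at 4.34 to 4.59 M reads, were shallower than every untreated library. The mean of the Bic/4AP libraries exceeded that of untreated replicates 1 and 3, which had 5.63 and 5.74 M reads, in 76 of the 79, with a median of 0.51 against -0.06 for all genes and 0.40 for the top decile. This held for 6859 of all 14801 genes and for 1349 of the 1481 genes of the top decile, so most highly expressed genes shared it.

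The first comparison asked what 3 h of excitation changed against untreated neurons. With Bic/4AP, 66 of the 79 genes rose, 1 fell and 12 did not pass, where a gene passed at an adjusted p under 0.05 in limma with Benjamini-Hochberg adjustment over all genes. Over all 14801 genes 29.6% rose and 42.5% fell. The median log2 change on the log2(RPKM + 1) scale, which understates changes of low genes, was 0.52 for the 79 genes and -0.12 for all genes tested. Of the 79, 64 had all 3 Bic/4AP libraries above all untreated ones and 2 had them below, where this held for 28.6% and 42.7% of all genes.

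The change with Bic/4AP depended on level over all genes, and ribosomal protein genes are high. In the top decile of tested genes 87.2% rose, with a median log2 change of 0.45, and 22 of the 25 ribosomal protein genes there rose, with a median of 0.54. In the ninth decile 56.0% of all genes rose, with a median of 0.20, against 30 of 32 with a median of 0.53. In the eighth decile 34.5% rose, with a median of 0.00, against 8 of 12 with a median of 0.48. Cyclic loess normalization, which removes a trend with level between libraries, gave 57 of the 79 higher and 5 lower, against 35.8% and 35.0% of all genes, and a median of 0.27. The median was above 0 under each of the 4 other scalings tried, at 0.27 to 0.66, and 55 genes were called higher as deposited and under all 4.

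**Figure D3:**
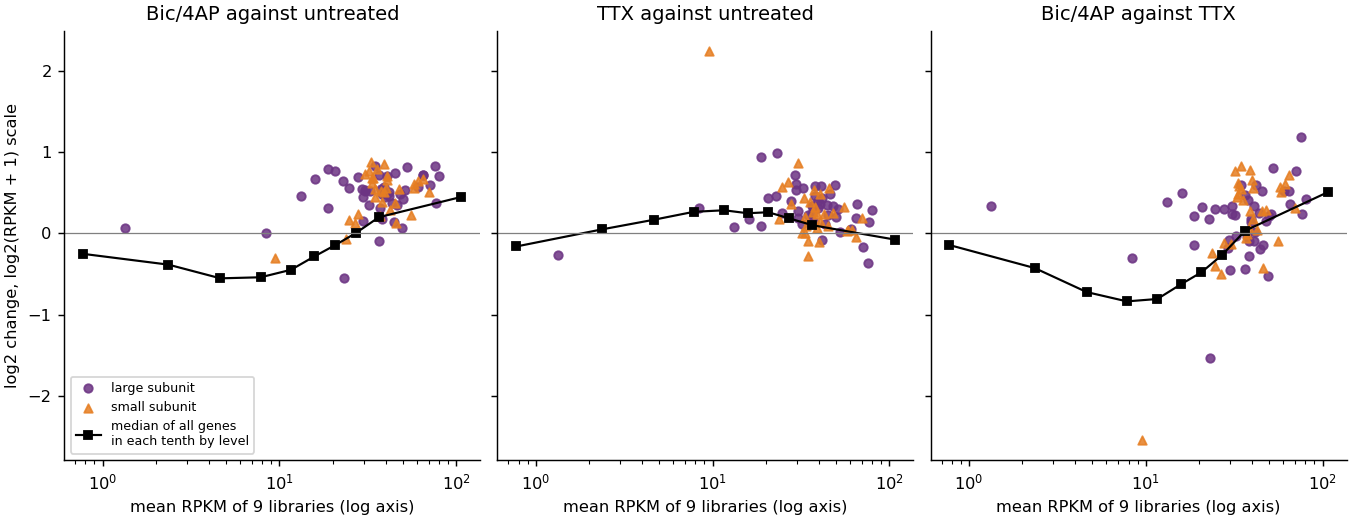
Log2 change of each tested ribosomal protein gene (y axis) against its mean RPKM over the 9 libraries (x axis, log scale) in the 3 comparisons; circles are large and triangles small subunit genes, and squares joined by a line are the median of all genes in each decile by level. With Bic/4AP against untreated most points lie above the line up to the ninth decile, and Rps4l (2.24) stands alone at the top with TTX against untreated and at the bottom (-2.55) with Bic/4AP against TTX.

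The largest rise with Bic/4AP was that of Rpsa, a small subunit protein also known as the laminin receptor precursor. Rpsa had 43.5, 45.0 and 42.2 RPKM with Bic/4AP, 32.0, 30.9 and 32.3 with TTX and 24.4, 23.7 and 21.8 untreated. The 3 groups were fully separate, and the log2 change against untreated was 0.87 ± 0.055 (SE, limma adjusted p = 6.14e-08), or 1.00 relative to the median gene. Rps13, a small subunit protein, had 55.1, 53.9 and 56.2 RPKM with Bic/4AP, 30.6, 31.0 and 33.2 with TTX and 32.9, 30.5 and 26.9 untreated. Its rise with Bic/4AP was 0.85 (limma adjusted p = 4.12e-07), and its TTX and untreated libraries overlapped. Rpl17, a large subunit protein at the exit of the peptide tunnel, averaged 47.0 ± 5.14 RPKM with Bic/4AP, 30.6 ± 1.24 with TTX and 26.0 ± 1.04 untreated, and its log2 change against untreated was 0.82 (limma adjusted p = 1.08e-06). These 3 were called higher under all 4 other scalings.

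Rpl39 had the highest level of any ribosomal protein gene with Bic/4AP. It had 110, 114 and 116 RPKM with Bic/4AP, 49.2, 47.5 and 51.7 with TTX and 67.6, 57.0 and 67.7 untreated. The groups did not overlap, with TTX below and Bic/4AP above the untreated libraries. The log2 change was 0.82 with Bic/4AP (limma adjusted p = 6.69e-07) and -0.36 with TTX (limma adjusted p = 0.000734) against untreated, and both calls held under all 4 other scalings. Rpl10, which joins the large subunit late in its assembly, had 71.7, 73.2 and 78.0 RPKM with Bic/4AP, 42.1, 40.0 and 44.5 with TTX and 44.2, 42.2 and 39.2 untreated. Only its Bic/4AP libraries stood apart, with a log2 change of 0.81 against untreated (limma adjusted p = 2.50e-07).

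Rpl36 was the member that fell with Bic/4AP. This large subunit gene had 13.6, 12.8 and 11.3 RPKM with Bic/4AP, 39.6, 36.9 and 38.3 with TTX and 17.4, 18.97 and 20.1 untreated. No groups overlapped: its level was lowest in excited and highest in silenced neurons. The log2 change against untreated was -0.55 ± 0.076 with Bic/4AP (limma adjusted p = 3.92e-05) and 0.99 ± 0.076 with TTX (limma adjusted p = 1.28e-06), and -1.54 for Bic/4AP against TTX (limma adjusted p = 1.58e-08). All 3 calls held under the 4 other scalings. No other ribosomal protein gene combined a rise with TTX and a fall with Bic/4AP. Over all genes tested the pattern was common: 13.6% had the same 3 calls, against 1.27% of the ribosomal protein genes.

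Of the proteins with known further roles, most rose with Bic/4AP by less. The stalk proteins Rplp0, Rplp1 and Rplp2, which recruit elongation factors, averaged 84.7 ± 4.42, 82.1 ± 7.37 and 44.0 ± 3.15 RPKM with Bic/4AP and 51.2 ± 3.90, 49.8 ± 6.09 and 31.3 ± 2.50 untreated, and all 3 rose, with log2 changes of 0.72, 0.72 and 0.48. Rps6, the substrate of the S6 kinases downstream of mTOR, rose to 42.1 ± 1.55 RPKM with Bic/4AP, against 32.1 ± 3.03 untreated (log2 change 0.38, limma adjusted p = 0.000347). Rps27a, made as a fusion with ubiquitin, rose to 44.5 ± 2.56 against 27.7 ± 5.18 (0.68, limma adjusted p = 0.000107). Rpl5 and Rpl11 can bind the Mdm2 ubiquitin ligase when they are outside ribosomes. Rpl5 rose to 36.4 ± 0.452 RPKM with Bic/4AP, against 28.6 ± 2.13 untreated (0.34, limma adjusted p = 0.000215), while Rpl11 had 36.8 ± 3.82 against 32.8 ± 5.78 and did not pass (0.17, limma adjusted p = 0.193).

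Rises of the genes with the highest levels depended on the scaling: they were smaller after quantile and loess normalization and larger with median ratio scaling, which gave 0.85 for Rpl41, 0.73 for Rpl15 and 0.51 for Rpl4. Rpl41 averaged 102 ± 1.91 with Bic/4AP, against 62.4 ± 7.31 untreated, with a log2 change of 0.71 (limma adjusted p = 2.15e-05) that was 0.13 after loess normalization. Rpl15 averaged 95.0 ± 1.77 RPKM with Bic/4AP and 63.0 ± 5.75 untreated, a change of 0.59, or 0.08 after loess. Rpl4 averaged 87.8 ± 3.30 with Bic/4AP and 67.8 ± 7.69 untreated, a rise of 0.37 as deposited that turned to -0.10 after quantile and -0.19 after loess normalization.

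The second comparison asked what blocking sodium channels changed against untreated neurons. With TTX, 51 of the 79 genes rose, 3 fell and 25 did not pass, where 40.6% of all genes tested rose and 23.5% fell. The median log2 change was 0.26 for the 79 genes and 0.13 for all genes tested. The 3 TTX libraries lay above all untreated ones for 50 genes and below them for 2, against 43.5% and 26.1% of all genes. In the top decile by level, where 22.2% of all genes rose with a median of -0.08, 13 of the 25 ribosomal protein genes rose and 2 fell, with a median of 0.19. In the ninth decile 20 of 32 rose, against 44.1%, and in the eighth 11 of 12, against 51.9%. After loess normalization 41 rose and 5 fell, against 30.8% and 35.4% of all genes. The median stayed above 0 under the 4 other scalings, at 0.08 to 0.24, but 21 genes were called higher as deposited and under all 4. With median ratio scaling 22 of the 79 rose, or 27.8%, near the 28.6% of all genes.

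The largest rise with TTX was that of Rps4l. Rps4l had 3.76, 2.55 and 2.45 RPKM with Bic/4AP, 24.5, 19.1 and 21.6 with TTX and 3.02, 5.01 and 3.52 untreated. All TTX libraries were far above all others, and the Bic/4AP and untreated libraries overlapped. The log2 change with TTX against untreated was 2.24 ± 0.178 (SE, limma adjusted p = 1.66e-06), or 2.11 relative to the median gene and 1.93 after loess. RefSeq annotates Rps4l as a transcribed pseudogene at chr6:148354656-148355596 of GRCm38.p6. A symbol-wise match is all that links the row to that locus, and reads of Rps4x and its other copies could be counted there.

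After Rps4l and Rpl36, the largest rises with TTX were those of Rpl29, a large subunit protein also known for binding heparin, and Rps12, a small subunit protein. Rpl29 had 20.9, 19.9 and 22.1 RPKM with Bic/4AP, 25.4, 21.4 and 23.4 with TTX and 11.5, 14.8 and 9.32 untreated. Rps12 had 33.7, 34.1 and 33.4 RPKM with Bic/4AP, 38.2, 32.6 and 40.5 with TTX and 20.9, 23.8 and 15.8 untreated. Both genes were lower in all untreated libraries than in the 6 treated ones. The log2 change with TTX was 0.94 for Rpl29 (limma adjusted p = 6.26e-05) and 0.86 for Rps12 (limma adjusted p = 7.79e-05).

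The 3 genes that fell with TTX were Rpl39, Rps29 and Rpl15, and all 3 rose with Bic/4AP. This pattern, with Bic/4AP also above TTX, held for 3.8% of the ribosomal protein genes and 5.76% of all genes tested. Rps29, a zinc-binding small subunit protein, had 43.6, 48.6 and 47.9 RPKM with Bic/4AP, 26.0, 24.7 and 26.8 with TTX and 33.2, 29.8 and 31.7 untreated. Its groups did not overlap, and the log2 change against untreated was -0.28 with TTX (limma adjusted p = 0.00166) and 0.55 with Bic/4AP (limma adjusted p = 6.31e-06). Rpl15 had 93.3, 96.8 and 94.9 RPKM with Bic/4AP, 54.6, 53.7 and 58.9 with TTX and 69.1, 57.7 and 62.1 untreated. Its TTX and untreated libraries overlapped, and the fall of 0.17 on the log2 scale just passed (limma adjusted p = 0.0437).

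Several genes with further roles rose with TTX as with Bic/4AP. Rpsa rose by 0.43 (limma adjusted p = 4.20e-05), Rplp2 by 0.58 (limma adjusted p = 3.01e-05) and Rps6 by 0.32 (limma adjusted p = 0.00175) on the log2 scale. Rpl11 averaged 44.9 ± 2.97 RPKM with TTX and 32.8 ± 5.78 untreated and rose (0.45, limma adjusted p = 0.00392), while its partner Rpl5 averaged 31.0 ± 1.07 and 28.6 ± 2.13 and did not pass (0.11, limma adjusted p = 0.106). Rpl8, close to the catalytic centre of the large subunit, had 42.0, 45.2 and 42.5 RPKM with Bic/4AP, 63.3, 58.1 and 67.2 with TTX and 41.2, 40.8 and 42.2 untreated. Only its TTX libraries stood apart, with a log2 change of 0.59 against untreated (limma adjusted p = 7.87e-06). Rpl21, at 9.74 ± 0.953 RPKM with TTX and 7.68 ± 0.978 untreated, passed as deposited (0.31, limma adjusted p = 0.0442) but under none of the 4 other scalings, and its change was -0.02 after loess.

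The third comparison set excited against silenced neurons and uses no untreated library in its difference. With Bic/4AP against TTX, 45 of the 79 genes were higher, 13 lower and 21 did not pass, where 23.7% of all genes tested were higher and 53.1% lower. The groups lay apart with Bic/4AP above for 45 genes and below for 15, against 25.6% and 55.9% of all genes. The median log2 change was 0.25 for the 79 genes and -0.33 for all genes. This median changed most with scaling, at 0.05 after loess and 0.04 after quantile normalization and 0.56 after median ratio scaling. After loess 34 genes were higher and 20 lower, against 34.7% and 35.7% of all genes. As deposited, 20 of the 25 genes in the top decile were higher, against 80.6% of all genes there, with a median of 0.31 against 0.50. In the ninth decile 18 of 32 were higher, against 42.4%, with a median of 0.31 against 0.03. In the eighth 4 of 12 were higher, against 23.9%, with a median of -0.12 against -0.27.

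The extremes of this comparison were single genes named above. Rpl39 was higher with Bic/4AP than with TTX by 1.18 on the log2 scale (limma adjusted p = 4.08e-08), Rps29 by 0.83 (limma adjusted p = 1.79e-07), Rpl10 by 0.80 (limma adjusted p = 2.39e-07) and Rps13 by 0.78 (limma adjusted p = 6.96e-07). Rps4l was lower by -2.55 (limma adjusted p = 1.31e-07), Rpl36 by -1.54, Rpl8 by -0.53 (limma adjusted p = 5.50e-06) and Rps28, a small subunit protein, by -0.50 (limma adjusted p = 0.00176). Rps28 had 22.3, 21.3 and 28.2 RPKM with Bic/4AP, 33.1, 31.2 and 38.2 with TTX and 23.3, 23.6 and 18.6 untreated, and its TTX libraries were above all 6 others.

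Set side by side, the comparisons sort the genes into a few patterns, which share libraries and are given as counts only. In 18 genes, among them Rpsa, Rplp0, Rplp1, Rpl41 and Rps2, the level passed as higher with TTX than untreated, and higher again with Bic/4AP than with TTX, which is 22.8% of the 79, against 3.43% of all genes tested. For Rplp0, Rplp1 and Rpl41 the difference of Bic/4AP from TTX was 0.52, 0.36 and 0.43 as deposited but turned to -0.04, -0.23 and -0.27 after quantile normalization and to -0.01, -0.18 and -0.29 after loess. In 24 genes, among them Rpl10, Rps13, Rps4x, Rps27 and Rps27l, Bic/4AP was higher than both other groups and TTX did not pass against untreated (30.4%, against 10.6% of all genes). In 20 genes, among them Rps6, Rpl3, Rplp2, Rpl29 and Rps12, both treatments were higher than untreated and did not pass against each other (25.3%, against 5.41%). In 11 genes, Rpl8, Rpl11, Rpl13a, Rpl18, Rpl21, Rpl22, Rps4l, Rps9, Rps15a, Rps19 and Rps28, TTX was higher than both other groups and Bic/4AP did not pass against untreated (13.9%, against 13.7%). The first 3 of these patterns all need a rise with Bic/4AP, which 66 of the 79 had, and the last share is near that of all genes. Rpl7a rose with both treatments and was lower with Bic/4AP than with TTX, and Rpl39l passed in no comparison.

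Paralogs and their partners are set side by side next; differences between the changes of a pair were not tested. Rps4x, the X-linked partner of Rps4l, had 85.3, 87.5 and 89.2 RPKM with Bic/4AP, 52.5, 49.8 and 56.3 with TTX and 59.0, 50.9 and 54.7 untreated. It rose with Bic/4AP (log2 0.66, limma adjusted p = 2.07e-06) and did not pass with TTX (-0.05, limma adjusted p = 0.499), whereas Rps4l rose with TTX and did not pass with Bic/4AP. The level of Rps4l was 3.35% ± 0.915 of that of Rps4x with Bic/4AP, 41.1% ± 4.70 with TTX and 7.13% ± 2.43 untreated (SD, n = 3 each), and the 3 groups did not overlap.

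Rps27 and Rps27l, which encode nearly the same small subunit protein and of which Rps27l is known as a p53 target, were close in level. Rps27 had 42.7, 47.0 and 44.5 RPKM with Bic/4AP, 26.7, 23.9 and 26.95 with TTX and 26.2, 23.9 and 27.6 untreated. Rps27l had 41.4, 40.8 and 47.7 RPKM with Bic/4AP, 28.8, 29.3 and 30.1 with TTX and 32.9, 28.1 and 33.4 untreated. Both stood apart only with Bic/4AP. The log2 change against untreated was 0.77 for Rps27 (limma adjusted p = 9.68e-07) and 0.45 for Rps27l (limma adjusted p = 0.000194). Rps27l was 97.1% ± 10.1 of Rps27 with Bic/4AP, 114% ± 7.52 with TTX and 121% ± 3.90 untreated, so that all 3 Bic/4AP ratios were below all 3 of TTX and of untreated neurons. The difference between these ratios was not tested.

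**Figure D4:**
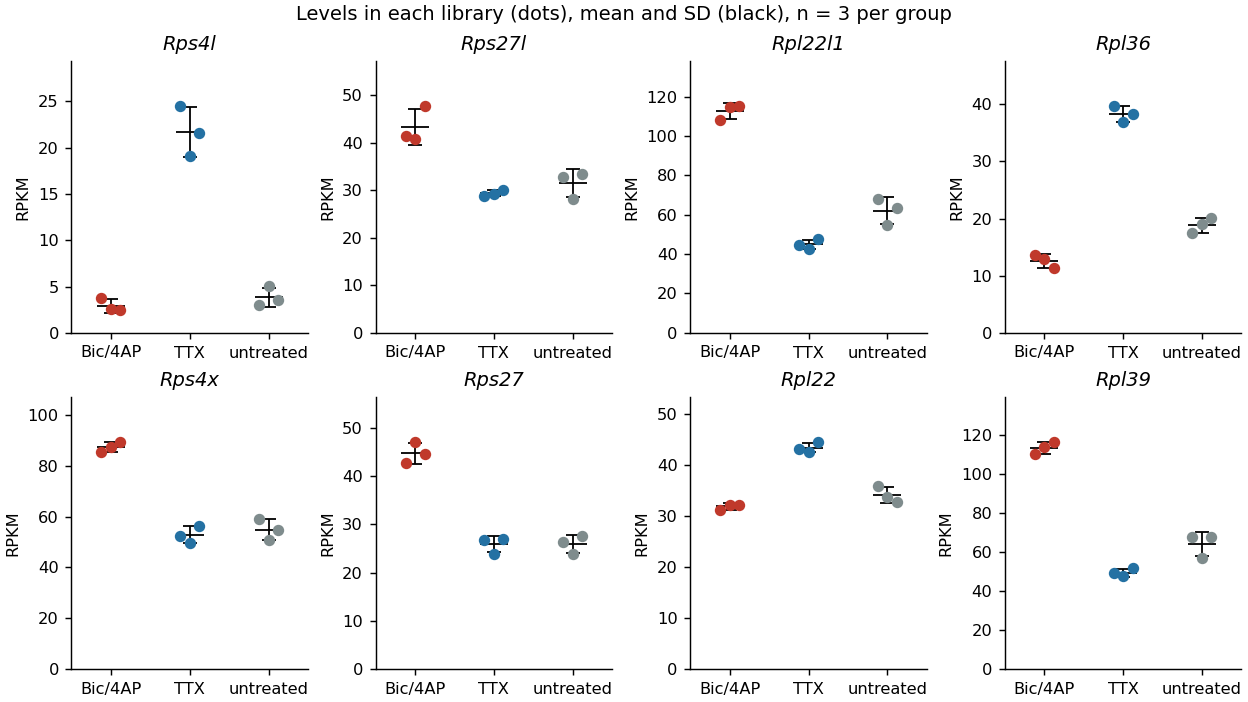
RPKM (y axes, from 0) of 3 paralogs above their partners, and of Rpl36 above Rpl39, in each library (dots), with the mean and SD of the 3 libraries of a group in black. Rps4l is high only with TTX (19.1 to 24.5 RPKM) and Rps4x only with Bic/4AP, while Rpl22l1 and Rpl22 run in opposite order over the 3 groups, and Rpl36 and Rpl39 do so as well.

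Rpl22 and its paralog Rpl22l1, which can take its place in the ribosome and whose symbol lies outside the naming rule, ran in opposite order. Rpl22 had 31.2, 32.2 and 32.2 RPKM with Bic/4AP, 43.1, 42.6 and 44.4 with TTX and 35.8, 33.7 and 32.8 untreated. Rpl22l1 had 108, 115 and 115 RPKM with Bic/4AP, 44.8, 42.8 and 47.4 with TTX and 68.1, 54.6 and 63.5 untreated. Neither gene's groups overlapped. Rpl22 rose with TTX (log2 0.34, limma adjusted p = 0.000119) and did not pass with Bic/4AP (-0.10, limma adjusted p = 0.106), while Rpl22l1 fell with TTX (-0.45, limma adjusted p = 0.000305) and rose with Bic/4AP (0.85, limma adjusted p = 1.03e-06). The level of Rpl22l1 was 353% ± 5.81 of that of Rpl22 with Bic/4AP, 104% ± 3.19 with TTX and 182% ± 17.4 untreated.

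Rpl7l1, a homologue of Rpl7, was 22.6% ± 3.01 of Rpl7 with Bic/4AP, 46.1% ± 2.30 with TTX and 33.6% ± 2.94 untreated, and the 3 groups did not overlap. Rpl36al, nearly identical in protein to Rpl36a, was 157% ± 27.5 of it with Bic/4AP, 148% ± 6.16 with TTX and 158% ± 8.63 untreated, and these overlapped. Rpl39l stayed at 1.45% ± 1.24 of Rpl39 with Bic/4AP, 1.87% ± 0.584 with TTX and 2.28% ± 1.43 untreated. Rpl3 averaged 39.4 ± 1.69, 40.3 ± 2.91 and 31.9 ± 3.93 RPKM with Bic/4AP, with TTX and untreated, and the treatments did not pass against each other (log2 -0.03, limma adjusted p = 0.766).

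The genes most like Rps4l over the 9 libraries, by Pearson's r of log2(RPKM + 1), were Zmat5 (0.997), Rnf220 (0.997) and Coasy (0.995). They averaged 8.94, 15.3 and 11.5 RPKM with Bic/4AP, 23.2, 24.0 and 27.5 with TTX and 10.0, 16.3 and 13.1 untreated. The genes most like Rps27l were Tpm3 (0.992), Mtx2 (0.988) and Cd81 (0.988). These values are descriptions over libraries that share treatment and depth, picked from 14801 genes.

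Ribosomal proteins outside the naming rule were counted with the same fit. Of 7 such genes, among them Rpl7l1, Rpl22l1, Rpl36al, Rps3a1, Fau and Gnb2l1, 6 rose and 0 fell with Bic/4AP, and 3 rose and 1 fell with TTX. Over all genes 29.6% rose and 42.5% fell with Bic/4AP, and 40.6% rose and 23.5% fell with TTX. After loess 4 of the 7 rose and 0 fell with Bic/4AP, and 5 rose and 1 fell with TTX. Fau, a fusion with a ubiquitin-like protein, averaged 37.2 ± 3.25 RPKM with Bic/4AP, 46.3 ± 3.60 with TTX and 25.6 ± 0.693 untreated. Of 5 tested rows of ribosomal protein pseudogenes, 4 rose with Bic/4AP and 3 with TTX. Rpl14-ps1 averaged 69.7 ± 3.35 RPKM with Bic/4AP, 68.7 ± 4.07 with TTX and 52.5 ± 4.59 untreated, above its parent gene Rpl14 at 47.7 ± 1.62, 52.8 ± 3.20 and 37.5 ± 3.90.

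Genes that work with the ribosomal proteins were counted as well. Of 63 genes of ribosome assembly and RNA polymerase I, 11 rose and 40 fell with Bic/4AP against untreated, where 29.6% and 42.5% of all genes did. With TTX against untreated 35 rose and 5 fell, where 40.6% and 23.5% of all genes did. Their median log2 change was -0.32 with Bic/4AP and 0.27 with TTX, or -0.11 and 0.01 after loess normalization. After loess 13 rose and 26 fell with Bic/4AP, against 35.8% and 35.0% of all genes. With TTX 18 rose and 17 fell after loess, against 30.8% and 35.4%. Nat10, an acetyltransferase of ribosomal RNA, averaged 7.11 ± 0.423 RPKM with Bic/4AP and 20.8 ± 1.70 untreated, and Rrp9, a protein of the U3 particle that processes ribosomal RNA, 4.59 ± 0.261 and 18.1 ± 2.77. Eif6, which keeps free large subunits from joining, averaged 31.6 ± 1.71 RPKM with TTX and 15.1 ± 1.92 untreated. Nop10, a small protein of pseudouridylating particles, was among the 11 that rose with Bic/4AP, at 81.5 ± 3.98 RPKM, against 49.0 ± 4.61 untreated.

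Of 18 translation factors and other genes with TOP mRNAs, 14 rose and 4 fell with Bic/4AP, against 29.6% and 42.5% of all genes. Their median log2 change of 0.42 was 0.06 after loess, where 7 rose and 6 fell, against 35.8% and 35.0% of all genes. With TTX 6 rose and 5 fell, against 40.6% and 23.5%, with a median of -0.08. After loess 7 rose and 8 fell with TTX, against 30.8% and 35.4%, with a median of 0.05. Eef1d, an elongation factor subunit, ran against most of them, at 9.20 ± 0.573 RPKM with Bic/4AP, 26.1 ± 0.993 with TTX and 18.1 ± 1.15 untreated. Npm1, a nucleolar chaperone, averaged 62.1 ± 2.03 with Bic/4AP and 41.9 ± 1.91 untreated. Of 21 genes of mTOR and translation control, 6 rose and 11 fell with Bic/4AP and 8 rose and 6 fell with TTX. Rises in this list were near the shares of all genes, 29.6% with Bic/4AP and 40.6% with TTX. Rheb, the activator of mTOR, rose to 90.4 ± 2.95 RPKM with Bic/4AP, against 47.4 ± 5.73 untreated, and Rps6kb2, an S6 kinase, fell to 4.78 ± 0.222, against 33.6 ± 4.71. Of 15 p53 targets, 6 rose and 5 fell with Bic/4AP and 9 rose and 2 fell with TTX. After loess 9 of these 15 rose and 4 fell with Bic/4AP, and 7 rose and 5 fell with TTX.

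Mitochondrial ribosomal proteins, which form a separate ribosome, differed from the cytosolic set in their counts. Of 77 genes, 22 rose and 21 fell with Bic/4AP, with a median log2 change of 0.03. The share that rose with Bic/4AP was near the 29.6% of all genes. With TTX 67 of the 77 rose and 0 fell, against 40.6% and 23.5% of all genes, with a median of 0.55. After loess 29 rose and 13 fell with Bic/4AP, and 54 rose and 3 fell with TTX. Mrps34 averaged 45.9 ± 1.68 RPKM with TTX and 16.7 ± 1.92 untreated. Nuclear genes of oxidative phosphorylation, which share the high level of the cytosolic set, gave 60 higher and 8 lower of 76 with Bic/4AP and 34 and 4 with TTX, with medians of 0.45 and 0.17. After loess 32 rose and 14 fell with Bic/4AP, against 35.8% and 35.0% of all genes. With TTX 40 rose and 8 fell after loess, against 30.8% and 35.4%.

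The starts of the ribosomal protein genes were almost free of CpG methylation in all 3 bisulfite libraries. The deposited fractions have no coverage, so their depth is unknown, and 1 library per treatment allows no test. Within 500 bases of the start, the median over the 60 genes was 0.0156 with Bic/4AP, 0.0113 with TTX and 0.0102 untreated, against 0.0143, 0.0143 and 0.0142 for tested genes. The fraction was below 0.1 for 53 genes with Bic/4AP and for 55 in each of the other libraries, or 88.3% and 91.7%. Most tested genes were below 0.1 too, 83.8% with Bic/4AP and 83.2% in each of the other libraries. Rpl27a had 0.00635 with Bic/4AP, 0.00536 with TTX and 0.00418 untreated, and Rps27 had 0.00426, 0.00652 and 0.00639.

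Starts with a fraction above 0.5 in all 3 libraries were those of 3 low paralogs and of Rpl22. Rpl10l had 0.973 with Bic/4AP, 0.979 with TTX and 0.975 untreated over 53, 46 and 52 CpGs, while Rpl10 had 0.0885, 0.0593 and 0.0950. Rpl39l had 0.889, 0.893 and 0.881, while Rpl39 had 0.113, 0.0769 and 0.0353. Rpl3l had 0.703, 0.633 and 0.667. These starts were high in all 3 libraries, and the corresponding genes were those of lowest level. Rpl22, which is well expressed, had 0.853, 0.900 and 0.888 at the more upstream of its 2 listed starts. Values just above 0.1 in at least 1 library were those of Rpl39, of Rps4x at 0.110 with Bic/4AP, 0.154 with TTX and 0.0997 untreated, of Rps24 at 0.109, 0.0979 and 0.0917, and of Rpl36a at 0.0249, 0.0846 and 0.110.

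Further from the start the methylation of these genes was higher upstream than that of other genes. In the 100 bases centred 1050 bases before the start, the mean fraction was 0.738 with Bic/4AP, 0.718 with TTX and 0.766 untreated, against 0.434, 0.434 and 0.433 for tested genes. At the same distance after the start it was 0.180, 0.184 and 0.211, against 0.253, 0.256 and 0.254.

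**Figure D5:**
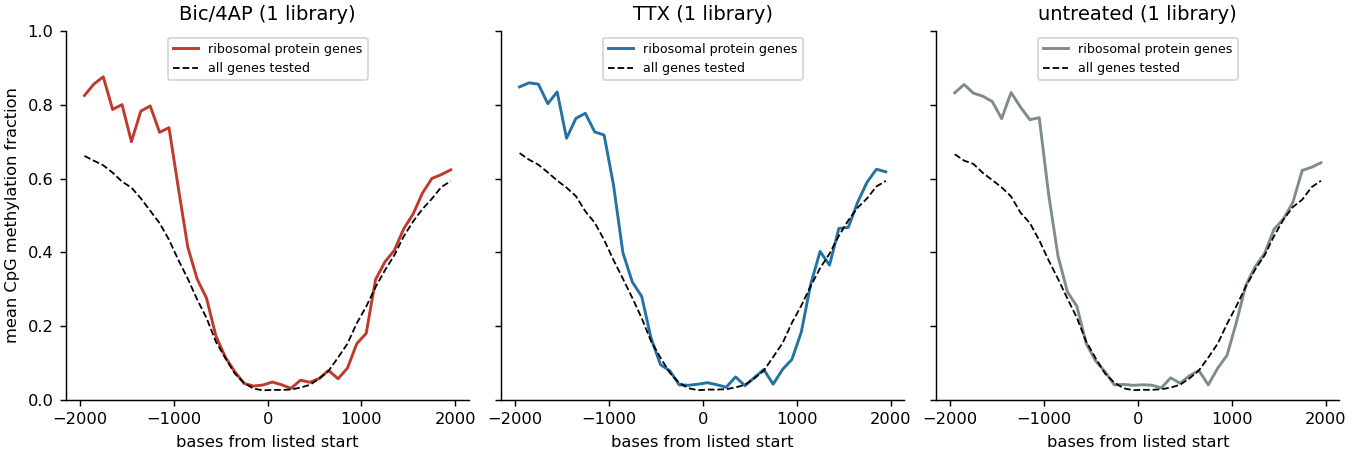
Mean CpG methylation fraction (y axis) in steps of 100 bases from the listed start (x axis, negative before the start), for 60 ribosomal protein genes (solid) and all tested genes with a listed start (dashed), in 1 library per treatment. Both lines fall below 0.1 around the start, and before about 1000 bases upstream the solid line is above the dashed one in each library.

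H3K27ac, a mark of active promoters and enhancers, was looked up as the authors' peaks within 1000 bases of the start. In the first pair of lists, 27 of the 60 genes had a peak with Bic/4AP and 13 untreated, or 45% and 21.7%, against 31.6% and 14.4% of tested genes. In the later pair, 49 had a peak with Bic/4AP and 39 untreated, or 81.7% and 65%, against 55.3% and 42.4%. The lists held 7721 and 4846 peaks in the first pair and 55035 and 49701 in the later one, so more peaks were called with Bic/4AP both times, also over all genes. Overlaps between lists were counted for the 60 genes alone, so no share of tested genes stands beside them. All 39 genes with an untreated peak in the later pair also had one with Bic/4AP. A peak in all 4 lists was found for 10 genes and in none for 11. Rpl10l, Rpl39l, Rpl3l and Rpl22, the genes with starts above 0.5, were among those with none, but so were Rps27l, Rps4x, Rps2 and Rpsa, which are well expressed. Only the most upstream listed start of a gene was searched. Of the 60 genes, 10 have several, and Rpl22, Rpl3l and Rps27l each have 2. Rpl19, Rpl4, Rps6 and Rps26 had peaks in all 4. H3K4me1, a mark of enhancers, had no peak within 1000 bases of any of the 60 starts in either list, against 0.655% and 0.665% of tested genes.

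The calls were also counted by the letters at the start, for the 58 tested genes with a listed start. With Bic/4AP, 16 of the 20 genes with a pyrimidine run of 8 or more rose, against 33 of the 38 without, with median log2 changes of 0.47 and 0.60. With TTX, 12 of 20 rose and 1 fell, against 25 and 1 of 38, with medians of 0.29 in both. Of the 24 genes with the ETS letters, 22 rose with Bic/4AP, against 27 of the 34 without, and for Bic/4AP against TTX 17 were higher and 1 lower, against 15 and 8. With TTX 13 of the 24 rose and 2 fell, against 24 and 0 of the 34. Of the 17 genes with the YY1 core letters, 12 rose with Bic/4AP, against 37 of the 41 without, with medians of 0.34 and 0.54. With TTX 11 of the 17 rose and 0 fell, against 26 and 2 of the 41. For Bic/4AP against TTX 7 of the 17 were higher and 4 lower, against 25 and 5. These counts are descriptions, with no test, and no share of all tested genes stands beside them.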

How the data were processed

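Directional libraries were prepared from poly(A) RNA, per the labels' protocols. The submitters' processing notes name MACS 1.4.1, SAMtools 0.1.19, Bowtie2 2.2.4 and TopHat, with mm10 as the build. The counting tool, strand setting and treatment of duplicates are not stated in what was used. The authors deposited expression as RPKM per gene and library. CpG methylation was deposited by the authors as a fraction per CpG, from post-bisulfite adaptor tagging per the labels, with no coverage. Peaks carry the authors' MACS score, used only to rank peaks within a list.

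Of 24062 lines, 4 with repeated names were left out; 23 names look like dates. Reads per library were recovered from RPKM steps (tolerance 0.15 read). RPKM + 1 was taken to log2, a gene entered when 3 or more libraries reached 1 RPKM, and all 9 libraries were fitted with limma 3.58.1 (R 4.3.3) without a replicate block, with Benjamini-Hochberg adjustment over 14801 genes and a threshold of 0.05. Changes relative to the median gene subtract the median change of all genes tested. The procedure was tested on simulated data. Python 3.11.15, pandas 2.3.3 and NumPy 2.4.6 did the rest. Starts and sequences are RefSeq's (GRCm38.p6), and the most upstream listed start of each gene was used.

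The genes named were a fixed set of paralogs and proteins with further roles, the 4 largest changes in each direction per comparison whose groups did not overlap, genes below the filter, the 5 highest and 5 lowest by mean, up to 3 genes by smallest p in each direction of each pathway list, and 3 genes most like Rps4l and Rps27l. Rpl14 and the genes listed by pattern or peak were added after their values were seen. Members and lists were chosen with earlier results of these data known. Alternatives were quantile, cyclic loess, median ratio and TPM scaling, other filters and pseudocounts, the replicate block, leaving out each library, and other windows around starts. The input sample was not used. Some genes that these rules name are not reported here; they stay in every fit, count and sum.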

Additional observations from a re-analysis of the deposited data

How the results depend on the processing

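The median change of the 79 genes stayed above 0 in all 3 comparisons under every scaling tried, but counts moved. With TTX against untreated, median ratio scaling gave 22 genes higher and 5 lower, against 28.6% and 32.9% of all genes, so the members' share of rises was no higher there. Genes lower with TTX numbered 6 after quantile and 5 after loess normalization, against 31.9% and 35.4% of all genes. Genes lower with Bic/4AP against untreated numbered 4 after quantile, 5 after loess and 2 with TPM scaling, against 30.9%, 35.0% and 44.9%. For Bic/4AP against TTX they numbered 23, 20 and, with median ratio scaling, 3, against 36.2%, 35.7% and 39.7%. The cause was not tested.

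Among the named genes, log2 changes that turned sign and passed under at least 1 of the settings compared (as deposited or the other) were, for TTX against untreated, Rpl21 at -0.0203 after loess. For Bic/4AP against untreated they were Rpl8 at -0.16 after quantile and -0.26 after loess and Rpl4 at -0.10 and -0.19. For Bic/4AP against TTX, quantile and loess gave Rplp0 -0.0414 and -0.00649, Rplp1 -0.23 and -0.18, Rpl41 -0.27 and -0.29, Rpl21 0.42 and 0.54, and Rpl4 -0.42 and -0.45. Loess gave Rpl29 0.37, and median ratio scaling gave Rpl3 0.29, Rplp2 0.22 and Rpl11 0.0352. The cause was not tested. Over all settings of the named genes, 61 values lost the call, 21 gained it and 19 turned sign in this way, while 1462 kept the call and its direction or passed in neither setting.

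Leaving out 1 library at a time gave 64 to 68 higher and 1 to 2 lower for Bic/4AP against untreated, 40 to 54 and 2 to 5 for TTX against untreated, and 39 to 48 and 9 to 14 for Bic/4AP against TTX. Same-numbered libraries did not deviate together (correlations of -0.173 to 0.0435), and the replicate block gave 66 higher and 1 lower with Bic/4AP, 48 and 2 with TTX, and 44 and 11 for Bic/4AP against TTX.

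Median methylation within 200 and within 1000 bases was 0.00955 and 0.0482 with Bic/4AP, 0.00896 and 0.0461 with TTX and 0.00674 and 0.0410 untreated. H3K27ac peaks over the start itself and in the upper part of scores (above the list's median) were found for 13 and 12 of the 60 genes in the first Bic/4AP list, 40 and 34 in the later Bic/4AP list, 3 and 5 in the first untreated list and 25 and 17 in the later untreated list. Over the start itself the shares were 21.7%, 66.7%, 5% and 41.7%, against 17.5%, 42.9%, 3.29% and 29.3% of tested genes. For the upper part of scores the shares were 20%, 56.7%, 8.33% and 28.3%, against 21.3%, 44.7%, 8.55% and 29.9% of tested genes, so that only the later Bic/4AP list had a higher share than tested genes. Depth limits the lowest genes: a single read in 1 kb is worth 0.0791 to 0.230 RPKM.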
